A study of Mus musculus with 11 samples.

Results

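Pan-neuronal genes are the genes that nearly all neurons use, whatever transmitter they release. A list of 36 such genes of the enteric plexus was followed here across 2 progenitor cell lines and the stomach muscle they came from. The list was chosen with earlier results of these data known, so its counts are a description and no independent test. Genes were matched by symbol in the platform annotation, and of a gene's probe sets the one brightest on average across the 11 arrays was used. All 36 were found among the 18193 named genes, and all 36 were among the 13285 genes tested, which lay above the array median on at least 2 arrays.

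The study measured gene expression on Affymetrix mouse arrays in clonally derived progenitor lines of interstitial cells of Cajal, the pacemaker cells of gut muscle, and in their source tissue. The tsA58 line (2xSCS70, 3 arrays) came from H-2Kb-tsA58 mice, whose transgene drives a temperature-sensitive large T antigen from an interferon-inducible promoter. It was grown in neural stem cell proliferation medium at 39.5 °C without interferon-gamma. The C57BL/6J line (2xSCS2F10, 3 arrays) was wild-type and was kept at 37 °C in that medium with 5% chick embryo extract. The tissue was gastric tunica muscularis of H-2Kb-tsA58 mice (3 arrays) and of C57BL/6J mice (2 arrays), whose ages and numbers are not given in the sources used here. Each line is 1 clone, so strain, transgene, clone, medium and temperature cannot be told apart between the lines. Strain and transgene cannot be told apart between the tissues either.

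The enteric nervous system lies within the gut wall, and its myenteric plexus runs between the muscle layers that make up the tunica muscularis. Its neurons arise from neural crest cells that depend on the receptor Ret and on the transcription factors Phox2a and Hand2. Mature neurons keep RNA-binding Hu proteins, neuronal tubulin and intermediate filaments, a SNARE machine for vesicle release and granins for peptide storage. Pacemaker cells and smooth muscle cells of the same wall are of mesodermal origin. Some members are shared with other cells: endocrine cells of the stomach also store granins and use Snap25 and Uchl1, and mesenchymal cells of the gut express Hand2.

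Values are log2 intensities made by the authors with RMA, which scales arrays to a common distribution of probe signals. Differences are thus relative to the bulk of transcripts. The deposited values per probe set did not share a distribution exactly. Array medians lay between 4.66 and 4.84, and a level near or below them cannot be told from background. Folds measured against such a level are too small. Calls required both a change of at least 2-fold, that is 1 on the log2 scale, and an adjusted p below 0.05 (limma, Benjamini-Hochberg over all tested genes). Replicate titles say biological, but the series design mentions 2 to 3 chips for a sample, so p-values may measure technical spread.

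Markers and arrays were looked at before the members. The smooth muscle actin Actg2 stood at 3.22 to 3.73 over the 6 arrays of the lines, against 12.76 to 13.18 in tsA58 tissue and 12.30 to 12.37 in C57BL/6J tissue. Kit, the defining receptor of interstitial cells, was below the array medians on all 6 line arrays, at 3.16 to 3.79 in tsA58 and 3.35 to 3.87 in C57BL/6J, against 7.34 to 8.61 in tsA58 tissue and 6.83 to 7.47 in C57BL/6J tissue. Markers of the exocrine pancreas, an organ outside the stomach wall, summed to 7.73, 13.60 and 8.17 (log2) on tsA58 tissue replicates 1 to 3 and to 14.77 and 10.04 on C57BL/6J tissue replicates 1 and 2. In the tsA58 line, replicate 3 stood apart, with a ratio of 3-prime to 5-prime actin signal of 0.05 (log2) against 0.51 and 0.85 on the other arrays. Calls of named genes that change without these arrays are given with and without them.

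**Figure D1:**
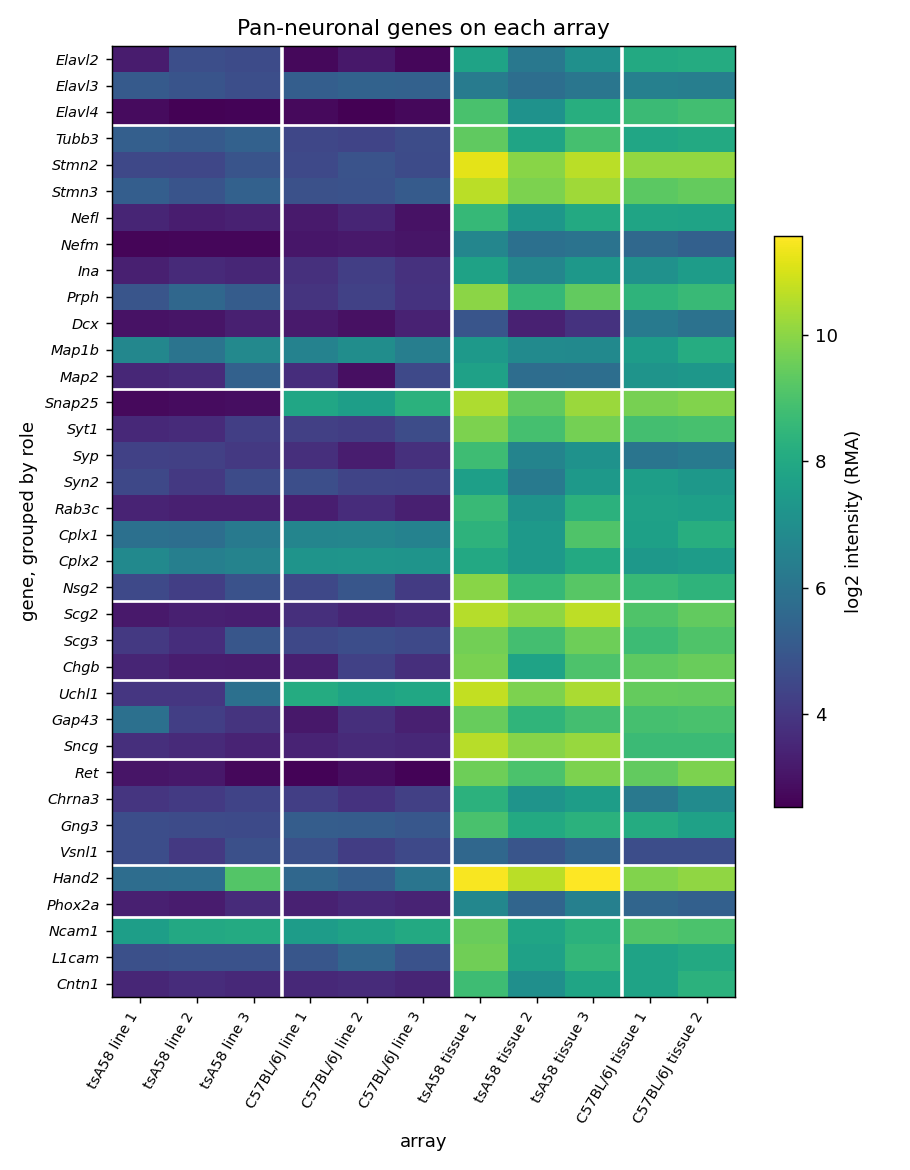
Level of each of the 36 pan-neuronal genes (rows, grouped by role) on each of the 11 arrays (columns), as RMA log2 intensity on the colour scale. Most rows are dark on the 6 line arrays and bright on the 5 tissue arrays, and Snap25 and Uchl1 are bright in the C57BL/6J line as well.

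The first question was how much of the neuronal programme of the source tissue the lines carried. Pan-neuronal transcripts were far lower in both lines than in the muscle wall. Of the 36 members, 32 in the tsA58 line were called lower than in tsA58 tissue, against 18.9% of all tested genes called lower, and 0 were called higher, against 12.8%. The C57BL/6J line had 34 of 36 called lower than in C57BL/6J tissue, against 16.6% of all tested genes, and 0 were called higher, against 17.5%. The members' median log2 change was -3.96 for tsA58 and -3.50 for C57BL/6J, while the median over all tested genes was -0.00013 for tsA58 and 0.12 for C57BL/6J. All 36 estimates were negative in each comparison with the probe sets and scaling used here. Scaling on the arrays' hybridisation controls turned Map1b positive in both and Elavl3, Cplx2 and Vsnl1 positive in C57BL/6J, and left 22 members called lower there. Taking the median or the most variable of a gene's probe sets turned Ncam1 positive in both, Map1b in tsA58 and Cplx1 and Cplx2 in C57BL/6J. Of the other tested probe sets of called members, 29 of 31 in tsA58 and 31 of 35 in C57BL/6J kept the sign. The call itself was kept by 22 in tsA58 and 23 in C57BL/6J. In both lines 31 of 36 members were called lower. The share of all tested genes called lower in both was not counted, but it cannot exceed 16.6%. In bulk samples like these, fewer neurons and less RNA per neuron cannot be told apart.

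Many markers of the other cells of the wall were called lower too. Of the smooth muscle markers 10 of 10 were called lower in tsA58 and 8 of 10 in C57BL/6J cells, and of the macrophage and leukocyte markers 8 of 9 in each. Markers of enteric glia and Schwann cells were called lower in 7 of 10 for tsA58 and 6 of 10 for C57BL/6J, and fibroblast markers in 5 of 7 for tsA58 and 3 of 7 for C57BL/6J. Of the gastric endocrine markers 6 of 7 tested were called lower in each line. The part of these cell types in the members' levels was not tested.

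In absolute terms most members were near background in culture. In the tissues 35 of 36 members stood above the array median on every array, the exceptions being Dcx in tsA58 tissue and Vsnl1 in C57BL/6J tissue. In the lines the count was 9 of 36 for tsA58 and 11 of 36 for C57BL/6J. The 7 that did so in both lines were Stmn3, Map1b, Cplx1, Cplx2, Hand2, Ncam1 and L1cam, and 23 did so in neither line.

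**Figure D2:**
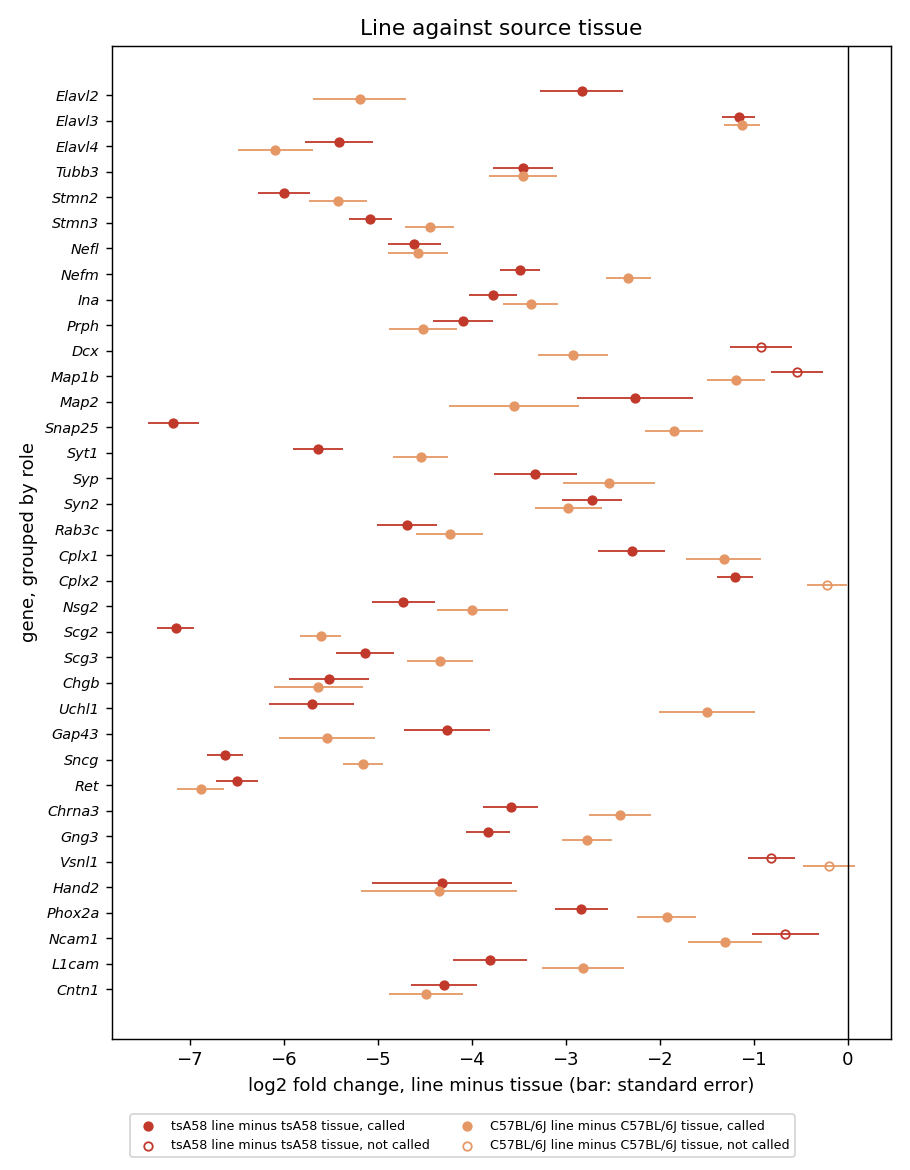
Log2 fold change of each pan-neuronal gene, line minus source tissue, in tsA58 (dark red) and C57BL/6J (light orange), with standard errors. Filled points passed the test and the 2-fold minimum. All points lie left of 0, and the 2 colours lie farthest apart for Snap25 and Uchl1.

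The neuronal Hu proteins Elavl2, Elavl3 and Elavl4 bind AU-rich elements in messenger RNA and are standard markers of enteric neurons. All 3 were called lower in both lines. Elavl4 stood at 2.81, 2.59 and 2.64 in the tsA58 line, against 8.96, 7.13 and 8.18 in tsA58 tissue. The C57BL/6J line had 2.78, 2.54 and 2.74, against 8.70 and 8.85 in C57BL/6J tissue. The groups did not overlap, and every line array was at background. The change was -5.41 ± 0.36 (SE, adjusted p = 9.14e-07) in tsA58 cells and -6.09 ± 0.40 (adjusted p = 1.59e-06) in C57BL/6J cells. Elavl3 changed least, by -1.16 in tsA58 and -1.12 in C57BL/6J (0.11 with the arrays scaled on hybridisation controls), with tissue levels of only 6.05 ± 0.25 in tsA58 (SD, n = 3) and 6.43 ± 0.04 in C57BL/6J (SD, n = 2). With the median of its probe sets Elavl3 was called in neither line (-0.56, adjusted p = 0.0611, in tsA58 and -0.14, adjusted p = 0.671, in C57BL/6J).

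Of the 10 cytoskeletal members, 8 were called lower in tsA58 cells and all 10 in C57BL/6J cells. Stmn2, which destabilises microtubules in growing axons, stood at 4.49, 4.45 and 4.87 in the tsA58 line, against 11.20, 9.97 and 10.63 in tsA58 tissue. C57BL/6J cells had 4.54, 4.83 and 4.61, against 10.09 and 10.08 in C57BL/6J tissue. Both lines thus lay near the array medians and far below every tissue array. Its change was -6.00 ± 0.28 (adjusted p = 5.16e-08) in tsA58 cells and -5.43 ± 0.31 (adjusted p = 5.43e-07) in C57BL/6J cells. Stmn3, of the same family, fell by 5.08 in tsA58 and 4.45 in C57BL/6J.

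The neuronal intermediate filament genes Nefl, Nefm, Ina and Prph fell by 3.48 to 4.61 in tsA58 cells and by 2.33 to 4.57 in C57BL/6J cells. The Prph figures hold for 1 probe set: of its others, none tested was called, with -0.18 and 0.07 in tsA58 cells and -0.40 and 0.32 in C57BL/6J cells. Tubb3, the neuronal beta-tubulin, changed by -3.45 in tsA58 and -3.46 in C57BL/6J, with levels of 5.08 to 5.33 in the tsA58 line, just above the array medians. Map2, the microtubule-associated protein of dendrites, fell by 2.26 in tsA58 and 3.55 in C57BL/6J. Map1b, a microtubule-associated protein that many dividing cells also express, was the exception of this group. Its levels were 6.70, 6.00 and 6.77 in the tsA58 line, against 7.39, 6.86 and 6.83 in tsA58 tissue, and its change there was -0.54 ± 0.27 (adjusted p = 0.132), which was not called. Map1b was called lower in C57BL/6J cells (-1.19 ± 0.31, adjusted p = 0.00898), but not without C57BL/6J tissue replicate 2 (-0.88, adjusted p = 0.105). Dcx, the doublecortin of young migrating neurons, changed by -0.93 in the tsA58 line (adjusted p = 0.0406), short of 2-fold. It was called lower there without tsA58 tissue replicate 2 (-1.27, adjusted p = 0.00719), and likewise without replicate 3 of the tsA58 line (-1.03, adjusted p = 0.0433).

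Of the 8 vesicle release members, all 8 were called lower in tsA58 cells and 7 in C57BL/6J cells. Syt1, the calcium sensor of fast exocytosis, fell by 5.63 in tsA58 and 4.54 in C57BL/6J, and Rab3c, a vesicle GTPase, by 4.69 in tsA58 and 4.23 in C57BL/6J. Syp, Syn2 and Nsg2, which encode membrane or vesicle-tethering proteins of the neuronal secretory route, fell by 2.72 to 4.73 in tsA58 cells and by 2.54 to 3.99 in C57BL/6J cells. The complexins, which clamp the SNARE complex before release, kept clear levels in culture. Cplx2 stood at 6.83, 6.44 and 6.56 in tsA58 cells and 7.21, 7.24 and 7.20 in C57BL/6J cells, against 7.97, 7.43 and 8.02 in tsA58 tissue and 7.35 and 7.53 in C57BL/6J tissue. It was called lower in the tsA58 line (-1.20 ± 0.19, adjusted p = 0.000566) and not in the C57BL/6J line (-0.22 ± 0.22, adjusted p = 0.435). Cplx1 was called lower in both, by 2.30 in tsA58 and 1.32 in C57BL/6J, but another Cplx1 probe set gave -0.29 in tsA58 and 0.32 in C57BL/6J, neither called. With the median of the probe sets, both complexins fell short of 2-fold in tsA58 (Cplx1 -0.62, Cplx2 -0.71). The C57BL/6J call of Cplx1 was lost without C57BL/6J tissue replicate 2 (adjusted p = 0.152).

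Granins are the acidic core proteins of dense-core granules, in which neurons and endocrine cells store peptides. All 3 members of this kind were called lower in both lines, with median changes of -5.52 in tsA58 and -5.61 in C57BL/6J. Scg2 stood at 3.17, 3.34 and 3.29 in the tsA58 line, against 10.57, 10.04 and 10.65 in tsA58 tissue. Levels in the C57BL/6J line were 3.76, 3.46 and 3.66, against 9.09 and 9.39 in C57BL/6J tissue. The change was -7.15 ± 0.20 (adjusted p = 1.28e-09) in tsA58 cells and -5.61 ± 0.22 (adjusted p = 3.6e-08) in C57BL/6J cells. Line and tissue arrays were thus far apart in both strains. Chgb fell by 5.52 in tsA58 and 5.63 in C57BL/6J, and Scg3 by 5.14 in tsA58 and 4.34 in C57BL/6J.

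The promoters of these 3 granin genes are shown because the genes moved together and because a cyclic AMP response element near the start is a known feature of granin genes. Each sequence is the 150 bases before the start in RefSeq (GRCm38.p6), on the gene's strand, with the element TGACGTCA or its shorter form TGACG in capitals. Scg2 is chr1:79440027-79440176 on the minus strand, Chgb is chr2:132781492-132781641 on the plus strand and Scg3 is chr9:75684057-75684206 on the minus strand.
Scg2: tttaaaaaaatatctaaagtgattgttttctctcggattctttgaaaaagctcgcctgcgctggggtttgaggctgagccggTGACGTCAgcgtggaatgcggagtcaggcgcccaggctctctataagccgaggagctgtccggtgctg
Chgb: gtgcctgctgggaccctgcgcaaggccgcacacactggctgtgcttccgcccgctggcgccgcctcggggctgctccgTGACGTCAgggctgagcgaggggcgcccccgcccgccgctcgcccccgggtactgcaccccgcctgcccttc
Scg3: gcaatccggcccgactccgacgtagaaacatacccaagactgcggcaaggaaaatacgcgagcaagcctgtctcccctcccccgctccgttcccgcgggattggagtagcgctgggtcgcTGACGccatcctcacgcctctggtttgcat
Counting back from the start at -1, the full element ran from base -68 to -61 in Scg2 and from -72 to -65 in Chgb, and the shorter form from -30 to -26 in Scg3. Both strands of the 250 bases before the start were searched in the 29 members that the promoter table held, and the short form is contained in the long one. TGACGTCA was found in 2 of 29 members (6.90%) and in 1.55% of all 32851 promoters, and TGACG in 6 of 29 (20.7%) and 17.8%. The GC box GGGCGG was found in 19 of 29 (65.5%) and in 32.7%, and TATAAA in 5 of 29 (17.2%) and 12.4%. The RE1 element of the repressor Rest, allowing 4 mismatches in its 18 defined letters, was found in 0 of 29 and in 0.469%. Members can have several promoters in the table, 45 in all here. A member counted if any of its promoters matched, while the shares of all are per single promoter, which can raise the member shares. At 0.469%, a count of 0 of 29 for RE1 says little. A match of letters is a description of the sequence only.

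Uchl1, Gap43 and Sncg encode a neuronal deubiquitinase, a growth cone protein and gamma-synuclein. All 3 were called lower in both lines. Sncg stood at 3.75, 3.60 and 3.42 in the tsA58 line, against 10.58, 9.91 and 10.16 in tsA58 tissue. C57BL/6J cells had 3.45, 3.60 and 3.53, against 8.68 and 8.69 in C57BL/6J tissue. No line array came near a tissue array. The change was -6.63 ± 0.19 (adjusted p = 1.96e-09) in tsA58 and -5.16 ± 0.21 (adjusted p = 6.05e-08) in C57BL/6J. Gap43 fell by 4.26 in tsA58 and 5.54 in C57BL/6J, and its 3 tsA58 line arrays spread widely, at 5.87, 4.23 and 3.89.

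Ret, the receptor tyrosine kinase for GDNF family ligands, separated tissue and lines most clearly among the receptors. It stood at 3.05, 3.11 and 2.73 in the tsA58 line, against 9.58, 9.01 and 9.78 in tsA58 tissue. Ret was at 2.62, 2.87 and 2.62 in the C57BL/6J line, against 9.41 and 9.76 in C57BL/6J tissue. The tissues overlapped with each other, and every line array was at background. The change was -6.49 ± 0.22 (adjusted p = 6.56e-09) in tsA58 cells and -6.88 ± 0.25 (adjusted p = 1.99e-08), or 118-fold, in C57BL/6J cells. Chrna3, the ganglionic nicotinic receptor subunit, fell by 3.59 in tsA58 and 2.42 in C57BL/6J, and Gng3, a neuronal G protein gamma subunit, by 3.83 in tsA58 and 2.77 in C57BL/6J. Vsnl1, a neuronal calcium sensor, was called in neither line, with estimates of -0.81 ± 0.25 (adjusted p = 0.02) in tsA58 and -0.20 ± 0.28 (adjusted p = 0.594) in C57BL/6J. That probe set reached at most 5.55 on any array. The other Vsnl1 probe set was called lower in tsA58 (-2.19, adjusted p = 0.00135), as was the median of both (-1.50, adjusted p = 0.00221) and, without tsA58 tissue replicate 2, the first one (adjusted p = 0.0103).

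Phox2a, a homeodomain factor of autonomic and enteric neurons, fell by 2.83 in tsA58 and 1.93 in C57BL/6J. Hand2, a bHLH factor needed for enteric neuron differentiation, stood at 5.77, 5.78 and 9.15 in the tsA58 line, against 11.46, 10.62 and 11.56 in tsA58 tissue. The C57BL/6J line had 5.56, 5.22 and 6.05, against 9.86 and 10.06 in C57BL/6J tissue. It was called lower in both lines, by 4.32 ± 0.75 (adjusted p = 0.000858) in tsA58 and 4.35 ± 0.83 (adjusted p = 0.00161) in C57BL/6J. Replicate 3 of the tsA58 line stood far above the other arrays of that line, and the other Hand2 probe sets were highest there too. Without that array the tsA58 change was -5.44 (adjusted p = 9.77e-07). With the median of its probe sets Hand2 was not called in C57BL/6J (-1.14, adjusted p = 0.3). On the same array the smooth muscle markers summed to 12.76 (log2), against 11.44 and 10.29 on the other tsA58 line arrays, and the fibroblast markers to 14.31, against 12.31 and 12.32. The part of these cells in the Hand2 level was not tested.

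Of the adhesion molecules of the immunoglobulin family, 2 of 3 were called lower in tsA58 cells and 3 of 3 in C57BL/6J cells. Cntn1, an axonal contactin, fell most. It stood at 3.49, 3.68 and 3.57 in the tsA58 line, against 8.75, 7.04 and 7.86 in tsA58 tissue. C57BL/6J cells had 3.58, 3.64 and 3.47, against 7.77 and 8.34 in C57BL/6J tissue. The change was -4.30 ± 0.35 (adjusted p = 4.45e-06) in tsA58 cells and -4.49 ± 0.39 (adjusted p = 1.03e-05) in C57BL/6J cells. L1cam, a neural adhesion molecule, fell by 3.81 in tsA58 and 2.82 in C57BL/6J.

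Ncam1 is an adhesion molecule that muscle and glia also express. Its levels were 7.61, 7.98 and 8.06 in the tsA58 line, against 9.49, 7.84 and 8.31 in tsA58 tissue, and the groups overlapped (-0.66 ± 0.35, adjusted p = 0.148). Without tsA58 tissue replicate 2 it was called lower (-1.02, adjusted p = 0.0295). It was called lower in C57BL/6J cells, by 1.31 ± 0.40 (adjusted p = 0.0194), but the call was lost on leaving out C57BL/6J line replicate 1 or either C57BL/6J tissue array. Its probe sets disagreed: 1 of them was called higher in both lines, by 1.19 in tsA58 and 1.21 in C57BL/6J. That probe set was below the array medians on every tissue array. In the lines it was near them, at 4.02 to 5.24 in tsA58 and 4.63 to 5.44 in C57BL/6J. A brighter probe set stood at 6.06 to 6.62 in the C57BL/6J line, against 9.65 and 9.77 in C57BL/6J tissue. In tsA58 its groups overlapped, at 7.08 to 7.69 in the line and 6.38 to 7.72 in tissue.

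The second question was how the lines differed from each other. Only 3 members were called. Against 5.77% of all tested genes called lower in the tsA58 line, 2 members were, Snap25 and Uchl1. Against 8.38% called higher, 1 member was, Prph. The members' median was -0.06, and that of all tested genes -0.04. Scaling the arrays on their hybridisation controls instead gave 22 members called higher and 2 lower, but it moved the median of all tested genes by 1.49.

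Snap25, the plasma membrane SNARE that drives vesicle fusion, stood at 2.76, 2.84 and 2.89 in tsA58 cells and 7.87, 7.61 and 8.31 in C57BL/6J cells. In tissue it stood at 10.44, 9.37 and 10.21 in tsA58 and 9.71 and 9.84 in C57BL/6J. The C57BL/6J line thus lay well above background and below every tissue array, while the tsA58 line was at background. The lines differed by -5.10 ± 0.27 (adjusted p = 1.99e-06), or 34.3-fold. The tsA58 line lay 7.18 ± 0.27 below its tissue, and the C57BL/6J line 1.85 ± 0.31 below its own, a difference between the line-tissue changes of -5.33 ± 0.41 (adjusted p = 6.35e-05). A further Snap25 probe set was at 3.15 to 3.26 in the C57BL/6J line, did not pass the filter on low values, and did not show this level.

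Uchl1 showed the same order. It stood at 3.96, 3.97 and 5.88 in tsA58 cells and 8.09, 7.78 and 7.90 in C57BL/6J cells. In tissue it stood at 10.72, 9.78 and 10.42 in tsA58 and 9.44 and 9.39 in C57BL/6J. Only replicate 3 of the tsA58 line came above the array medians, and it stayed below the lowest C57BL/6J line array. The lines differed by -3.32 ± 0.46 (adjusted p = 0.00071), and by -3.96 (adjusted p = 1.18e-05) without replicate 3. The line-tissue change was -5.70 ± 0.46 in tsA58 and -1.49 ± 0.51 in C57BL/6J, a difference of -4.21 ± 0.68 (adjusted p = 0.0027). The C57BL/6J line's call against its tissue (adjusted p = 0.0333) was lost on leaving out any C57BL/6J array, with adjusted p of 0.0584 to 0.13.

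Prph, the peripheral neuron filament peripherin, was higher in the tsA58 line, at 4.93, 5.56 and 5.18, against 3.91, 4.30 and 3.86 in the C57BL/6J line. The groups did not overlap, but the C57BL/6J line was below the array medians and the tsA58 line only just above them. The difference was 1.20 ± 0.32 (adjusted p = 0.0227). Its call was lost on leaving out C57BL/6J line replicate 1 or 3 or tsA58 line replicate 2, with adjusted p of 0.071 to 0.0814, and 2 other Prph probe sets gave -0.13 and -0.18.

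The other members of vesicle release and peptide storage were not called between the lines. Syt1 was at 3.58, 3.66 and 4.20 in tsA58 cells and 4.26, 4.19 and 4.63 in C57BL/6J cells, and the granins were at 3.17 to 4.94 in tsA58 cells and 3.30 to 4.68 in C57BL/6J cells. Both ranges reached little beyond the array medians. Elavl2 had an estimate of 1.31 ± 0.44 (adjusted p = 0.0562) and Gap43 of 1.26 ± 0.45 (adjusted p = 0.0687). Elavl2 was called higher in tsA58 without tsA58 line replicate 1 (1.79, adjusted p = 0.0163), without tsA58 tissue replicate 1 or 2 (adjusted p = 0.0372 and 0.0321) and with quantile normalisation (adjusted p = 0.0425). Without tsA58 line replicate 3, the lowest Gap43 array, Gap43 was called higher (1.65, adjusted p = 0.0185). Hand2 gave 1.29 ± 0.75 (adjusted p = 0.24), and turned to -0.97 with the actin ratio as a covariate.

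Markers of other cell types were measured in the same arrays. The gastric endocrine markers summed to 7.46 to 7.64 (log2) in tsA58 cells and 7.68 to 7.87 in C57BL/6J cells, against 10.42 to 12.51 in tsA58 tissue and 11.04 to 11.21 in C57BL/6J tissue. Chga, the defining granin of endocrine cells, was below the array medians on all 6 line arrays. The glial markers summed to 8.73 to 8.88 in tsA58 cells and 9.25 to 9.34 in C57BL/6J cells, against 10.55 to 11.29 in tsA58 tissue and 11.61 to 11.68 in C57BL/6J tissue. Their sum was thus higher in the C57BL/6J line, though 0 of 10 glial markers were called between the lines (median -0.23). Snap25 and Uchl1 were called, and the part of these cells in either level was not tested.

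**Figure D3:**
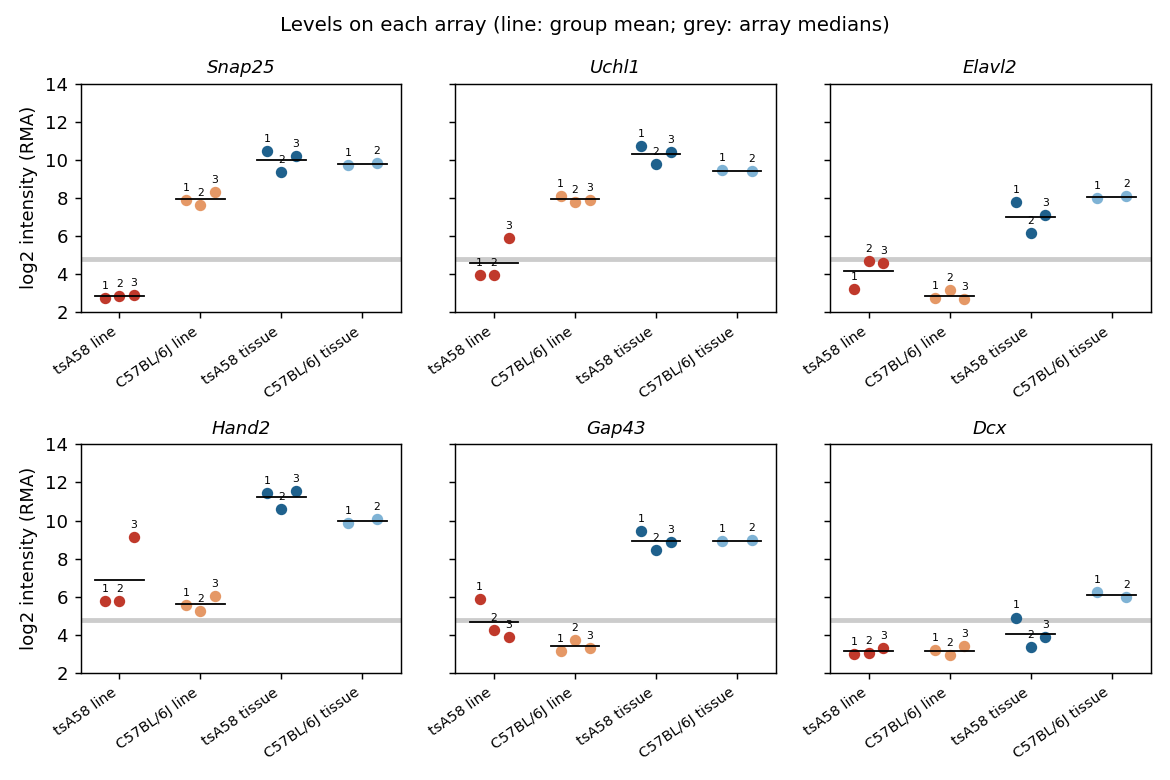
RMA log2 intensity of 6 members on each array, numbered by replicate, with group means as black lines and the range of array medians in grey. Snap25 and Uchl1 are high in the C57BL/6J line and low in the tsA58 line, Hand2 is high on tsA58 line replicate 3, and Dcx is near the medians in tsA58 tissue.

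The third question was whether the muscle walls of the 2 strains differed. Of the 36 members, 3 were called higher in tsA58 tissue (8.33%), a share close to the 9.56% of all tested genes called higher. Lower was 1 member (2.78%), against 3.21%. With the most variable probe set of each gene, 4 members were called lower, and 758 of all 12920 genes tested that way. The members' median was 0.42 and that of all tested genes 0.18. Scaling on the hybridisation controls gave 32 members higher and 0 lower, but it moved the median of all tested genes by 2.13.

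Scg2, with the tissue values given above, was higher in tsA58 tissue by 1.18 ± 0.22 (adjusted p = 0.00505). Sncg was higher by 1.53 ± 0.21 (adjusted p = 0.00158). Neither gene's tissue groups overlapped. Chrna3 stood at 8.34, 7.20 and 7.57 in tsA58 tissue, against 6.20 and 6.88 in C57BL/6J tissue. Its groups did not overlap either, and the difference was 1.16 ± 0.33 (adjusted p = 0.0316). The call of Chrna3 was lost without C57BL/6J line replicate 1, either C57BL/6J tissue array or tsA58 tissue replicate 1 or 3 (adjusted p 0.0504 to 0.259). It was also lost under 5 other alternatives: quantile normalisation, the most variable probe set, only the tissues in the fit, the actin covariate and the replicate block (adjusted p 0.059 to 0.158). The call of Scg2 was lost without C57BL/6J tissue replicate 1 (adjusted p = 0.0638).

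Dcx went the other way. It stood at 4.91, 3.36 and 3.87 in tsA58 tissue, against 6.24 and 5.96 in C57BL/6J tissue, with no overlap. The difference was -2.05 ± 0.37 (adjusted p = 0.00456), and a second Dcx probe set gave -3.09 (adjusted p = 2.7e-05 over the probe sets tested with it). In tsA58 tissue Dcx was near or below the array medians. Its call was lost without C57BL/6J tissue replicate 1 (adjusted p = 0.0512), and the estimate was 0.073 when arrays were scaled on hybridisation controls.

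Other markers moved between the tissues as well. Of the smooth muscle markers 4 of 10 were called higher in tsA58 tissue, of the macrophage and leukocyte markers 4 of 9 and of the endothelial markers 3 of 7, while of the glial markers 2 of 10 were called higher and 2 lower. Summed levels (log2) were 15.95 to 16.24 in tsA58 tissue and 15.16 to 15.25 in C57BL/6J tissue for smooth muscle, and 10.55 to 11.29 in tsA58 tissue and 11.61 to 11.68 in C57BL/6J tissue for glia. Hybridisation control signals also differed, at 7.52 to 9.66 in tsA58 tissue and 10.77 to 10.96 in C57BL/6J tissue. The ratio of 3-prime to 5-prime actin signal was 0.41 to 0.47 (log2) in tsA58 tissue and 0.84 to 1.02 in C57BL/6J tissue, with no overlap. The part of these in the members' differences was not tested.

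The members varied together among the 3 arrays of tsA58 tissue. Replicate 2 was the lowest of the 3 for 35 of 36 members (97.2%), against 36.9% of all tested genes, and replicate 1 was the highest for 31 of 36 (86.1%), against 39.2%. Replicate 1 exceeded replicate 2 in all 36 members, by 0.50 to 2.16 with a median of 1.11 (log2), while the median over all tested genes was 0.05. The gap was at least 1 in 21 of 36 members and in 6.83% of all tested genes. These are differences between single arrays, described without a test.

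The gap ran through every role. Its median was 1.71 for the adhesion genes, 1.62 for the Hu proteins, 1.27 for the cytoskeleton, 1.22 for vesicle release and 0.78 for the granins. Of the axon and cytoskeleton genes outside the list, 19 of 19 were higher on replicate 1 too, with a median of 1.22. The other neuronal lists had smaller gaps: 18 of 22 vesicle genes (median 0.71), 10 of 13 ion channels (0.57), 10 of 13 GDNF, endothelin and fate factors (0.21) and 11 of 13 transmitter and peptide genes (0.70). Glial markers were higher on replicate 1 in 7 of 10, with a median of 0.41, and smooth muscle markers in 8 of 10, with a median of 0.14. Skeletal muscle markers were higher there in 3 of 4, with a median of 1.53.

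Markers of epithelial, pancreatic and blood cells ran against the members on these arrays. Exocrine pancreas markers were higher on replicate 1 in 0 of 7, with a median gap of -5.42, gastric epithelium markers in 0 of 10 (-1.45) and macrophage and leukocyte markers in 0 of 9 (-1.32). Gastric endocrine markers were higher on replicate 1 in 2 of 7 (-1.34). Chga, the chromogranin of endocrine cells and no member of the list, stood at 7.47, 8.82 and 7.52 in tsA58 tissue, so it was highest on the array where Chgb, at 9.73, 7.76 and 9.03, was lowest. On C57BL/6J tissue replicates 1 and 2, exocrine pancreas sums of 14.77 and 10.04 stood beside pan-neuronal sums of 13.62 and 13.75 (log2). The part of these marker cells in the members' levels was not tested.

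Replicate 2 was the lowest tsA58 tissue array for 35 of 36 members, so leaving it out was bound to raise their tsA58 tissue means. Counts without it follow in part from that ranking and are no separate result. Without tsA58 tissue replicate 2, 9 members were called higher in tsA58 than in C57BL/6J tissue, against 10.5% of all tested genes. To Scg2, Sncg and Chrna3 this added Syp (1.82), Phox2a (1.21), Tubb3 (1.18), L1cam (1.16), Prph (1.16) and Stmn3 (1.11). Without C57BL/6J tissue replicate 1, the array with the most pancreatic signal, Sncg alone was called higher, against 4.55% of all tested genes, and Dcx was no longer called. Members called lower in line against tissue numbered 35 in tsA58 (18.7% of all tested genes) and 34 in C57BL/6J (16.8%) without tsA58 tissue replicate 2. Without C57BL/6J tissue replicate 1 they numbered 32 in tsA58 (18.6%) and 32 in C57BL/6J (14.3%).

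**Figure D4:**
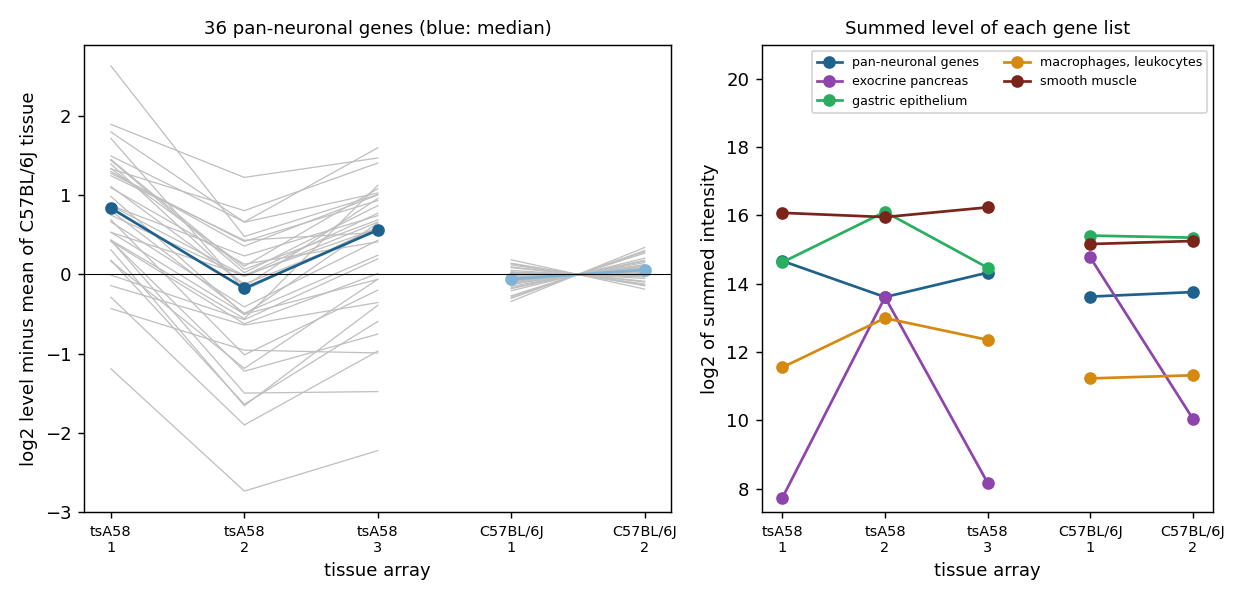
Left, level of each pan-neuronal gene on the 5 tissue arrays minus its C57BL/6J tissue mean (log2, grey lines), with medians in blue. Right, log2 of the summed intensity of 5 gene lists on the same arrays. Among tsA58 arrays the pan-neuronal sum is lowest on replicate 2, where the exocrine pancreas sum reaches 13.60. On C57BL/6J replicates 1 and 2 the pancreas sums are 14.77 and 10.04 and the pan-neuronal sums 13.62 and 13.75.

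The difference between the line-tissue changes of the strains was called in 7 members. Negative differences, a deeper drop in tsA58, were called for 5 members against 13.0% of all tested genes, and positive ones for 2 against 7.30%. The members' median was -0.51 and that of all tested genes -0.18. Snap25 and Uchl1, described above, were called between the lines and not between the tissues.

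For Scg2 (-1.54 ± 0.29, adjusted p = 0.00538) and Sncg (-1.47 ± 0.29, adjusted p = 0.0061) it was the other way round: the tissues were called different and the lines were not. Nefm, the medium neurofilament, stood at 2.68, 2.70 and 2.69 in tsA58 cells and 3.09, 3.17 and 3.05 in C57BL/6J cells. In tissue it stood at 6.69, 5.87 and 5.97 in tsA58 and 5.57 and 5.30 in C57BL/6J. Neither the lines nor the tissues overlapped, though every line array was at background. The difference was -1.15 ± 0.32 (adjusted p = 0.0273), and its call was lost on leaving out C57BL/6J line replicate 1 or 2, either C57BL/6J tissue array, or replicate 1 of the tsA58 line or tissue.

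Elavl2 gave 2.36 ± 0.67 (adjusted p = 0.028). It stood at 3.21, 4.70 and 4.59 in tsA58 cells and 2.74, 3.14 and 2.70 in C57BL/6J cells, and at 7.76, 6.15 and 7.08 in tsA58 tissue and 8.01 and 8.09 in C57BL/6J tissue. The tsA58 line lay above the C57BL/6J line and the tsA58 tissue below the C57BL/6J tissue, with no overlap. Every line array was near or below the array medians, and the lowest tsA58 value, 3.21, lay close to the highest C57BL/6J value, 3.14. With the median of its probe sets the Elavl2 difference was 0.69 (adjusted p = 0.361) and was not called. Dcx gave 2.00 ± 0.50 (adjusted p = 0.0172). Its line levels, 2.99, 3.04 and 3.33 in tsA58 and 3.18, 2.93 and 3.40 in C57BL/6J, were all at background. The call of Elavl2 was lost on leaving out C57BL/6J line replicate 1 or 3, tsA58 line replicate 2 or either C57BL/6J tissue array, and that of Dcx on leaving out either C57BL/6J tissue array. Without C57BL/6J tissue replicate 1, 0 members had a called positive difference, against 3.65% of all tested genes, and 4 a negative one, against 7.53%. Without tsA58 tissue replicate 2, 12 members had a called negative difference, against 13.7% of all tested genes. That array was the lowest tsA58 tissue array for most members, so leaving it out was bound to make their differences more negative.

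Other neuronal genes, listed by function, were often lower in culture as well. Of all tested genes, 18.9% were called lower and 12.8% higher in tsA58, and 16.6% lower and 17.5% higher in C57BL/6J. Of 22 tested genes of synaptic vesicles and exocytosis, 14 were called lower in tsA58 cells (median -1.47) and 7 in C57BL/6J cells (median -0.67). Of 19 axon and cytoskeleton genes, 11 were called lower in each line, with medians of -1.80 in tsA58 and -1.83 in C57BL/6J, and 1 was called higher in tsA58. Of 13 ion channels and ionotropic receptors, 9 were called lower and 1 higher in tsA58 (median -1.60), and 6 lower and 2 higher in C57BL/6J (median -0.93). Of 13 GDNF, endothelin and fate factors, 6 were called lower in tsA58 (median -0.86) and 5 in C57BL/6J (median -0.65), with 1 higher in each. Of 13 transmitter and peptide genes, 12 were called lower in tsA58 (median -4.54) and 8 in C57BL/6J (median -2.66).

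Ednrb, the endothelin receptor of enteric progenitors and glia, fell by 5.90 in tsA58 cells and 6.02 in C57BL/6J cells. Rims1, an active zone scaffold, fell by 6.33 in the tsA58 line, and Kif5a, a neuronal kinesin, by 4.87 there. Scn3b, a sodium channel beta subunit, fell by 3.72 in tsA58 and 3.61 in C57BL/6J cells. In C57BL/6J cells Cadps, a priming factor of dense-core granules, fell by 4.32 and Dpysl3, a growth cone protein, by 4.91.

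Between the lines, Dpysl3 was higher in tsA58 by 3.81 ± 0.54 (adjusted p = 0.00086) and P2rx2, an ATP-gated channel, was lower by 2.53 ± 0.25 (adjusted p = 8.91e-05), at a mean of 5.29 in tsA58 cells and 7.82 in C57BL/6J cells. Gata3, a fate factor, was higher in tsA58 by 1.21, but it was not called without tsA58 line replicate 3 (0.86) or with the actin ratio as a covariate (0.55, adjusted p = 0.218). Syt11, a synaptotagmin, was lower by 1.40, though not called when arrays were scaled on hybridisation controls (0.092) or with the median of its probe sets (-0.80, adjusted p = 0.12). Between the tissues, 7 of the 22 vesicle genes were called higher in tsA58, against 9.56% of all tested genes, and 0 lower, against 3.21%. Called higher were also 4 of 13 transmitter and peptide genes, 2 of 19 axon and cytoskeleton genes and 2 of 13 ion channels. None of these 3 lists had a gene called lower. Of the GDNF, endothelin and fate factors 1 of 13 was called higher and 1 lower. Rims1, a vesicle gene, was higher by 2.10 ± 0.26 (adjusted p = 0.000931). It was not called with its most variable probe set (1.27, adjusted p = 0.0687). Htr3a, a serotonin-gated channel, was higher by 1.73 and Kif1a, a vesicle kinesin, by 1.19. Zeb2, a neural crest factor, was lower by 2.03, turning to 0.094 with hybridisation control scaling and 0.14 with its most variable probe set. Without C57BL/6J tissue replicate 1, Htr3a (adjusted p = 0.0558) and Kif1a (adjusted p = 0.139) were not called.

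Rest is the repressor that keeps neuronal genes silent in other cells, with Rcor and Ehmt2 proteins among its partners. Rest was higher in the tsA58 line than in tissue by 1.34 ± 0.29 (adjusted p = 0.00319). Against C57BL/6J tissue its estimate in C57BL/6J cells was 0.95 ± 0.32 (adjusted p = 0.0336), short of 2-fold, and with other probe sets it turned negative, to -0.44 with the median and -1.80 with the most variable one. Rest was not called between the lines (0.39 ± 0.29, adjusted p = 0.36), but it was called higher in tsA58 with the median of its probe sets (1.21) or the most variable one (1.89). Of the 9 genes of this list 1 was called lower in tsA58, Rcor3 by 1.43, which was chosen after its value was seen, and 2 were called higher in each line, Rcor2 by 1.76 in tsA58 and Ehmt2 by 2.43 in C57BL/6J showing the largest changes.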

How the data were processed

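Gene expression was measured on 11 Affymetrix mouse genome arrays in 4 groups, taken from the titles and strain labels. Per the labels' protocols, about 50 ng of total RNA per sample went through 2 rounds of amplification, primed with oligo(dT) and then with random primers. The authors deposited log2 intensities per probe set made with RMA, per the submitters' processing notes. No RMA version is known here.

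Of 45101 probe sets, 34945 carried 1 gene symbol, which gave 18193 genes. A gene above the array median on at least 2 arrays was tested (13285). limma 3.58.1 in R 4.3.3 fitted 4 group means over all 11 arrays (lmFit, eBayes), with Benjamini-Hochberg adjustment over those 13285 genes in each of 5 comparisons. Calls needed an adjusted p under 0.05 and a 2-fold change. The code was tested on simulated data. The number of arrays limits the precision.

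The members and all gene lists were chosen with earlier results of these data known. Values per array are given for members called in a comparison other than line against tissue and for the member of each role with the largest line-tissue change. From the other neuronal lists the called gene with the largest change per comparison is named, transmitters by count only. Summed list levels are log2 of summed linear intensities. Promoters were searched with Python 3.11.15.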

Additional observations from a re-analysis of the deposited data

Results flagged for a closer look

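For 7 members the line-tissue change differed between the strains by the test of the difference itself (tsA58 change minus C57BL/6J change, log2, limma). Negative differences were called in 13.9% of members and 13.0% of all tested genes, and positive ones in 5.56% and 7.30%. The number of members called was thus close to the share over all tested genes. Snap25 gave -5.33 and Uchl1 -4.21: in each the tsA58 line was lower than the C57BL/6J line. Scg2 gave -1.54 and Sncg -1.47: in each the tsA58 tissue was higher than the C57BL/6J tissue. Nefm gave -1.15, with 2.69 in the tsA58 line, 3.10 in the C57BL/6J line, 6.17 in tsA58 tissue and 5.44 in C57BL/6J tissue. Elavl2 gave 2.36 and Dcx 2.00, and for Dcx the tsA58 tissue was lower than the C57BL/6J tissue. Snap25 and Uchl1 were called under all 23 alternatives, and the other 5 lost the call under 1 or more.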

How the results depend on the processing

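Under all 23 alternatives, 28 of 32 calls of lower levels in the tsA58 line and 20 of 34 in the C57BL/6J line kept call and direction, as did 2 of 3 between the lines, 1 of 4 between the tissues and 2 of 7 for the difference. Centring on hybridisation controls moved the median of all genes by 0.596 (tsA58 line against tissue), 1.23 (C57BL/6J), 1.49 (lines), 2.13 (tissues) and -0.637 (difference). It gave 22 members lower in the C57BL/6J line, 22 higher between the lines, 32 higher and 0 lower between the tissues, and 0 positive and 2 negative differences. It reversed Elavl3 (0.11), Map1b (0.048), Cplx2 (1.01) and Vsnl1 (1.04) in C57BL/6J, Map1b in tsA58 (0.059), Syt11 between the lines (0.092), and Dcx (0.073) and Zeb2 (0.094) between the tissues. Cyclic loess moved the median of all genes by -0.266 to 0.156. Quantile normalisation gave 2 members higher between the lines and 2 lower between the tissues. Between the tissues it moved the median of all genes by -0.16, and 910 genes were called higher, against 1270 before.

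The median of a gene's probe sets gave 0 members higher between the lines and 1 positive difference. It turned Cplx1 (0.28), Ncam1 (0.11) and Rest (-0.44) in C57BL/6J and Ncam1 (0.14) in tsA58. The most variable probe set gave 2 higher between the lines, 4 lower between the tissues and 4 positive differences. It turned Cplx2 (0.31) and Rest (-1.80) in C57BL/6J, Map1b (0.22) and Ncam1 (0.15) in tsA58 and Zeb2 (0.14) between the tissues. The actin ratio as a covariate gave 0 members higher between the lines, 2 lower between the tissues, and Hand2 at -0.97 between the lines. Causes were not tested.

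Leaving out 1 array gave 0 to 2 members higher between the lines, 1 to 9 higher and 0 to 2 lower between the tissues, and 0 to 3 positive and 4 to 12 negative differences. Deviations of same-numbered arrays of different groups correlated at r -0.156 to 0.25, and those of other pairs at -0.175 to 0.203. These weak values show no clear pairing by number, but they cannot exclude one. With the replicate block, 1 positive difference was called, since Elavl2 (2.42, adjusted p = 0.0549, limma) was lost. It also ended the tissue call of Chrna3 (1.12, adjusted p = 0.0748), gained Rest in C57BL/6J (1.05, adjusted p = 0.0276), and changed no other call among the 111 results for single genes.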
